A study of Mus musculus with 16 samples.

Results

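The cytosolic ribosomal protein genes were followed across whole hearts of C57BL/6 mice used as a model of posttraumatic stress disorder. Members were all array names that begin Rpl or Rps, with an optional p, followed by a digit, without the S6 kinases and without names that contain -ps or Rik. This gave 85 gene names of 34844 on the array, with 186 of 55681 probes, and 84 of the 22648 features that were tested. They comprised 43 large subunit genes, 29 small subunit genes, 3 genes of the stalk (Rplp0, Rplp1 and Rplp2), 8 paralogs of which 7 were measured, and 2 other names. The paralog not measured was Rpl10l, a testis-expressed copy of Rpl10, whose 2 probes did not pass the filter on dim probes. The 2 other names are Rps19bp1, a protein that binds a ribosomal protein and is not one itself, and Rpl22p, which the gene table used here did not match. The rule selects names by their spelling.

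T1R1, T2R1 and T3R1 mice had 1, 2 or 3 days of contact with an aggressor mouse and then 1 day of rest. Control mice stayed in the same kind of mesh box in a cage with no aggressor, and were labelled as belonging to the 2-day arm (rest of 1 day). Each group held 4 hearts, each read on its own 1-colour array, and the number of arrays limits the precision of all values. The general treatment text names longer exposures of 5 or 10 days, and the group names were followed.

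All 8 cardiomyocyte marker genes listed for the check of the tissue passed the filter, as the label of heart requires. The 16 arrays lay on 2 slides, each with its own scan. Control and T3R1 shared slide 1, and T1R1 and T2R1 shared slide 2. For T1R1 or T2R1 against control, exposure and slide cannot be told apart. The comparisons of T3R1 with control, and of T2R1 with T1R1, each stayed on a single slide. Control replicate 1 stood apart, with a correlation over features that averaged 0.988 to T3R1 hearts and 0.970 to its fellow controls (a description without a test, because features of an array are not independent). Whether that array holds the heart its label names was not tested, and results that rest on it are given with and without it. That array was singled out from these same values, for its likeness to T3R1 hearts. Leaving it out therefore favours a difference between T3R1 and control, and p values without it are descriptive only. From 46.5% to 67.1% of spots were well above background on an array, and no probe of a member was saturated.

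Ribosomes consist of a large and a small subunit, in which a set of proteins is assembled on ribosomal RNA. Most messenger RNAs for these proteins begin with a run of pyrimidines, the TOP motif, through which the kinase mTORC1 and the RNA-binding protein Larp1 control their translation together. In mouse heart and skeletal muscle a paralog, Rpl3l, takes the place of Rpl3 in a share of ribosomes, and Rpl3 is known to return when muscle grows or regenerates.

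The genes of the set varied little between hearts. Levels are given as log2 intensity minus the 75th percentile of the array, so 0 is the brightness of that percentile, and 82 of 84 members averaged above it. The median SD between hearts of a group was 0.12 on this scale over the 84 members, 0.17 over 1734 other features of like brightness, and 0.23 over all 22648 features. The largest spreads among members were those of Rpl39l (0.75), Rpl3l (0.47), Rpl12 (0.44) and Rpl3 (0.32). Rpl39l, a paralog of Rpl39 known from male germ cells, was well above background on only 11 of 16 arrays, and its level lay between -5.33 and -2.06. Rpl12, a protein of the stalk base, owed its spread to 1 array: T1R1 replicate 3 had 5.57 while the other 15 arrays had 7.11 to 7.72. A second Rpl12 probe had 5.94 on that array, inside its range of 5.59 to 6.38 on the others. Rpl12 was singled out after its values were seen.

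**Figure D1:**
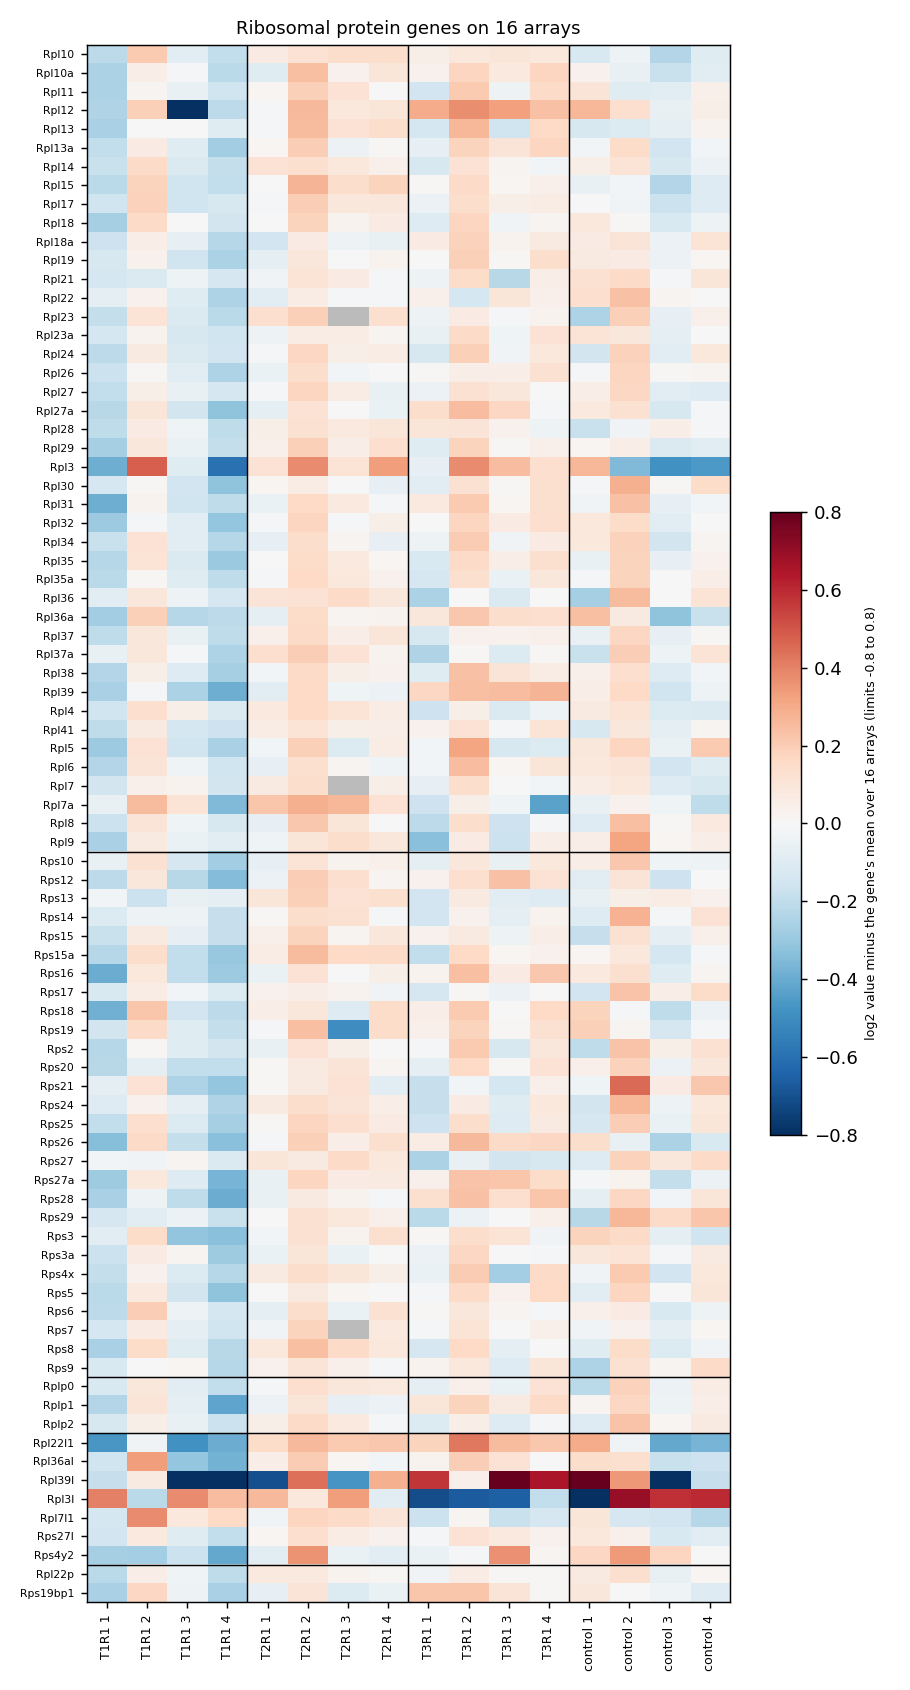
Each row is 1 of 83 of the measured genes, in the order large subunit, small subunit, stalk, paralogs and other names, and each column is 1 array. Colour gives the log2 value minus the gene's mean over 16 arrays, and grey marks the 3 missing values of T2R1 replicate 3. T1R1 replicates 1, 3 and 4 are low for most genes, and the Rpl3 and Rpl3l rows stand out with opposite colours on control replicate 1.

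T1R1 hearts address the effect of a single day of exposure after a day of rest. Of 84 ribosomal protein genes, 78 had a log2 fold change below 0 against control, with a median of -0.12. Over all features the median was -0.0056 and 49.2% of features lay above 0, against 6 of 84 members. Only 1 member passed an adjusted p of 0.05 (limma, Benjamini-Hochberg over all features), and it was lower, where 2.1% of all features were lower and 9.85% were called in either direction. At an unadjusted p under 0.05 there were 13 members, where 25.9% of all features passed. The arrays of both groups did not overlap for 3 members, all lower (Rpl21, Rps20 and Rps4y2), where 13.9% of all features did not overlap (9.82% higher and 4.06% lower). In bulk tissue, fewer cells of a type and less RNA per cell cannot be told apart.

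Markers of other cell types also differed in T1R1 hearts, given here as sums in multiples of the 75th percentile. For nerve and Schwann cells, 4 of 5 listed genes were lower in T1R1 hearts, with or without control replicate 1, and 3 were lower in T2R1 hearts. Their sums were 1.34 to 2.25 in T1R1 hearts and 1.46 to 2.11 in T2R1 hearts, against 2.35 to 3.42 in control hearts. Of 6 adipocyte markers 3 were lower in T1R1 hearts and none without control replicate 1, with sums of 23.7 to 147 in T1R1 hearts, against 72.2 to 251 in control hearts. T1R1 replicate 1 had sums of 7.67 for B cell and 11.3 for T cell markers (4 of 7 listed T cell genes tested). The other T1R1 hearts had at most 1.67 and 4.08. Control replicate 1 had 8.07 and 3.45, and its members lay at a median of 0.0035 from the control mean. T1R1 replicate 4 had 80.2 for liver markers (6 of 7 tested), where the other T1R1 hearts had at most 17.6. T1R1 replicates 1 and 4 had the lowest medians of the members. The median of T1R1 against control was -0.098 without T1R1 replicate 1 and -0.085 without T1R1 replicate 4. The part of these markers in the member values was not tested.

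The member that passed was Rps4y2, the array's name for a gene that RefSeq now lists as Rps4l, a relative of the small subunit gene Rps4x. Its log2 level was 2.06, 2.06, 2.16 and 1.92 in T1R1 hearts, against 2.49, 2.67, 2.50 and 2.33 in control hearts. Every T1R1 heart lay below every control heart. The log2 fold change was -0.45 ± 0.12 (SE, n = 4 per group, limma adjusted p = 0.0331). This call was lost on leaving out control replicate 2 (adjusted p = 0.0829) or 3 (adjusted p = 0.065), or T1R1 replicate 1 (adjusted p = 0.0535), 2 (adjusted p = 0.0636) or 4 (adjusted p = 0.094). The probe sits at chr6:148304043-148304102 in mm9, the build used for every probe position here.

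Rps20 and Rps28, both small subunit proteins, came next by p value. Rps20 had log2 levels of 8.03, 8.17, 8.06 and 8.06 in T1R1 hearts, against 8.29, 8.44, 8.21 and 8.35 in control hearts. All T1R1 values were below the lowest control value, and the log2 fold change was -0.24 ± 0.08 (SE, limma adjusted p = 0.0583). Rps28 had 7.51, 7.74, 7.57 and 7.38 in T1R1 hearts, against 7.70, 7.94, 7.75 and 7.87 in control hearts. T1R1 replicate 2 overlapped the controls, and the log2 fold change was -0.27 ± 0.09 (SE, limma adjusted p = 0.0627). Without control replicate 1, which is the lowest control for Rps28, 6 of 84 members passed, all lower, where 9.64% of all features were lower and 8.2% higher. These were Rps29 (log2 fold change -0.32), Rps28 (-0.31), Rps4y2 (-0.45), Rps21 (-0.37), Rpl30 (-0.30) and Rps20 (-0.25). 

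T2R1 hearts were compared with control to ask about 2 days of exposure, the duration for which the controls are labelled. No ribosomal protein gene passed (limma), where 18.4% of all features did (14.8% higher and 3.59% lower). Unadjusted, 5 of 84 members had p under 0.05, where 30.9% of all features passed. The median over the members was 0.04, beside 0.02 over all features, and 55 of 84 members lay above 0, where 52.7% of all features did. Of 5 neutrophil markers 4 were higher in T2R1 hearts (5 without control replicate 1), with sums of 13 to 45.5, against 4.33 to 9.26 in control hearts, and their part was not tested. The 95% interval of the fold change lay within 0.5 either side of 0 on the log2 scale for 78 of 84 members and for 41.1% of all features. Members' intervals are narrower because their spread is smaller.

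The members with the smallest p values were Rpl10, Rpl15 and Rpl22l1. Rpl10, which sits at the catalytic centre and is added late in assembly, had log2 levels of 8.58, 8.63, 8.66 and 8.66 in T2R1 hearts, against 8.40, 8.48, 8.29 and 8.43 in control hearts. The groups did not overlap, and the log2 fold change was 0.24 ± 0.09 (SE, n = 4 per group, limma adjusted p = 0.0807). Rpl15, a large subunit protein, had 7.07, 7.33, 7.20 and 7.24 in T2R1 hearts, against 7.01, 7.04, 6.83 and 6.96 in control hearts. Its groups did not overlap either, and the log2 fold change was 0.25 ± 0.10 (SE, limma adjusted p = 0.0842). Arrays did not overlap for 4 members, all higher (Rpl7a and Rps13 besides these), where 24.5% of all features did not overlap (18.1% higher and 6.34% lower). The other 2 Rpl10 probes gave log2 fold changes of 0.11 and 0.15, each ± 0.09 (SE, limma adjusted p = 0.43 and 0.304). A second, dimmer Rpl15 probe overlapped, with 2.64 to 2.78 in T2R1 hearts, against 2.41 to 2.89 in control hearts. So did the second Rps13 probe, with 7.18 to 7.28, against 7.06 to 7.40 in control hearts. Leaving out control replicate 1, 3 of 84 members passed: Rpl22l1 and Rpl3 were higher and Rpl3l was lower, where 15% of all features were higher and 9.37% lower.

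T3R1 hearts were compared with control to ask about 3 days of exposure, within 1 slide. No member passed (limma), where 0.693% of all features did (0.503% higher and 0.19% lower). Unadjusted, 7 of 84 members had p under 0.05, where 22.5% of all features passed. The median over the members was 0.03, beside -0.08 over all features, and 53 of 84 members lay above 0, where 38.4% of all features did. Arrays did not overlap for 5 members, all higher (Rpl10, Rpl10a, Rpl15, Rpl39 and Rps27a), where 7.57% of all features did not overlap (3.18% higher and 4.39% lower). The other Rpl10 probes did not overlap either, while second probes of Rpl10a, Rpl15 and Rpl39 did. The control group includes the array that stood apart, and without it 5 of 84 members passed. Of these, 2 were higher (Rpl22l1 and Rpl3), where 10.2% of all features were higher, and 3 were lower (Rpl3l, Rps27 and Rps29), where 19.2% were lower.

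**Figure D2:**
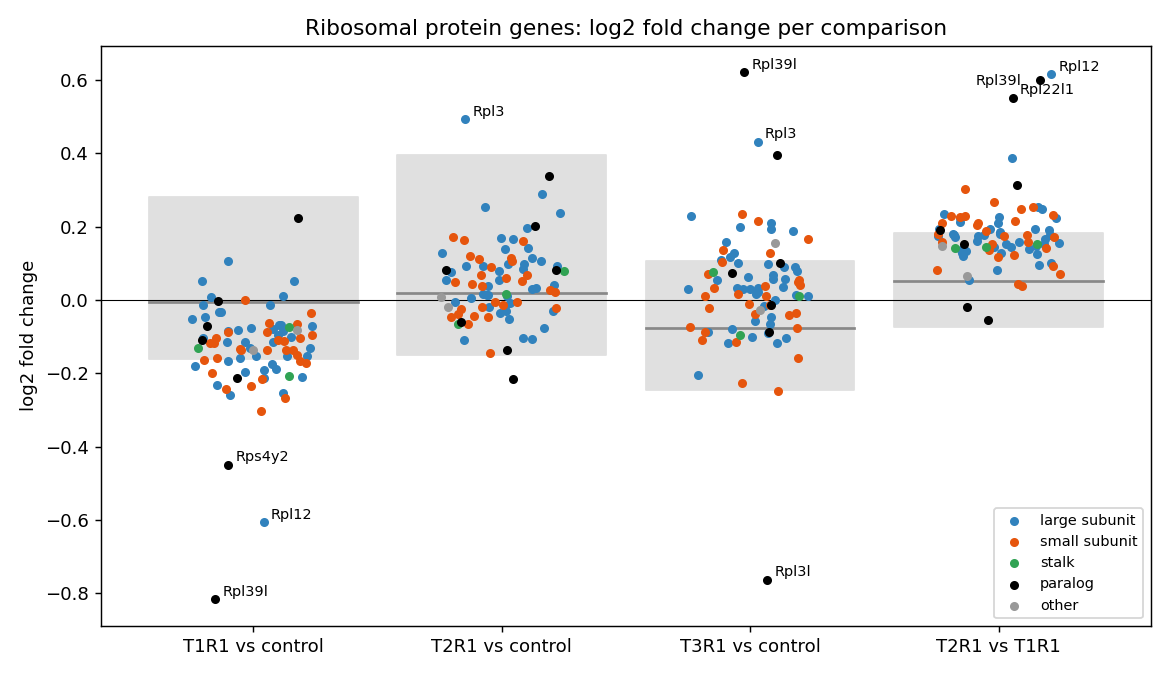
Each point is the log2 fold change of 1 of 84 genes in the comparison named on the x axis, coloured by class. The grey bar and line give the interquartile range and the median of all 22648 features. Most genes lie in a narrow band, below 0 in T1R1 against control and above 0 in T2R1 against T1R1, while Rpl3l, Rpl3, Rpl22l1, Rpl39l, Rpl12 and Rps4y2 lie farthest out.

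Rpl3l and its parent Rpl3 had wide and opposite values on control replicate 1. Rpl3l had log2 levels of 5.17, 4.55, 5.14 and 5.01 in T1R1 hearts, 5.02, 4.85, 5.10 and 4.67 in T2R1 hearts and 4.05, 4.10, 4.11 and 4.56 in T3R1 hearts. Control hearts had 3.71, 5.46, 5.35 and 5.36. The T3R1 hearts lay below control replicates 2 to 4, and control replicate 1 lay below all 15 other arrays. The log2 fold change of T3R1 against control was -0.76 ± 0.31 (SE, n = 4 per group, limma adjusted p = 0.17). On leaving out control replicate 1, a choice made after its values were seen, the Rpl3l value was -1.18 ± 0.16 (SE, limma adjusted p = 0.000378). That is 0.44 of the level in the 3 remaining controls. In T2R1 without that array it fell by 0.48 ± 0.16 (SE, limma adjusted p = 0.0478), and in T1R1 the value was -0.42 ± 0.16 (SE, limma adjusted p = 0.0852). With all controls the values were -0.06 in T2R1 and -0.0037 in T1R1.

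Rpl3 had log2 levels of 6.38, 7.25, 6.67 and 6.18 in T1R1 hearts, 6.89, 7.15, 6.88 and 7.11 in T2R1 hearts and 6.71, 7.15, 7.02 and 6.91 in T3R1 hearts. Control hearts had 7.04, 6.42, 6.29 and 6.31. All T2R1 and T3R1 hearts lay above control replicates 2 to 4, and control replicate 1 lay among them. The log2 fold change was 0.10 ± 0.21 in T1R1, 0.49 ± 0.21 in T2R1 and 0.43 ± 0.21 in T3R1 (SE, n = 4 per group, limma adjusted p = 0.799, 0.129 and 0.247). With control replicate 1 left out, Rpl3 rose by 0.67 ± 0.20 in T2R1 (SE, limma adjusted p = 0.0293) and by 0.61 ± 0.20 in T3R1 (SE, limma adjusted p = 0.0359), while the T1R1 value was 0.28 ± 0.20 (SE, limma adjusted p = 0.329).

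The brightest Rpl3 probe has a design position on chromosome 5, while the gene lies on chromosome 15, so it could also read a copy of the gene. A second probe in the coding sequence maps to chromosome 15. It had 5.73, 6.65, 6.24 and 6.15 in T1R1 hearts, 6.28, 6.58, 6.22 and 6.47 in T2R1 hearts and 6.48, 6.70, 6.43 and 6.45 in T3R1 hearts. Control hearts had 6.55, 5.79, 5.76 and 5.83. Control replicate 1 was the highest control on both probes, and the log2 fold changes of the second probe were 0.21, 0.40 and 0.53 in T1R1, T2R1 and T3R1 (limma adjusted p = 0.53, 0.174 and 0.135).

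The 60-base probes of Rpl3l and of Rpl3 in its coding sequence (the second Rpl3 probe above) are shown to compare their bases. The within-array differences below and the plot of Rpl3l against Rpl3 use the brightest Rpl3 probe, whose sequence is not shown. The alignment therefore does not say whether that brightest probe tells Rpl3 from Rpl3l. The last 27 bases of the Rpl3l probe align without gaps to the first 27 bases of the second Rpl3 probe. Of these 20 are identical (74.1%), and capitals mark the 7 that differ. The second Rpl3 probe spans chr15:79908489-79908772 on the minus strand across an intron. The Rpl3l probe spans chr17:24872413-24872681 on the plus strand, also across an intron.
Rpl3: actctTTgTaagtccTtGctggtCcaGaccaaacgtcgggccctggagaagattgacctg
Rpl3l: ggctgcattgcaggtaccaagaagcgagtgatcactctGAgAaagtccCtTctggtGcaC

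The difference between both genes on an array is untouched by scalings that subtract 1 number per array, though not by quantile normalization. The group mean of Rpl3l minus Rpl3 was lower in T3R1 than in control by 1.19 on the log2 scale (exact permutation test, two-sided, p = 0.143, n = 4 per group, adjusted p = 0.5 over 28 tests of 7 pairs). Against control replicates 2 to 4 the difference was -1.79 in T3R1 and -1.15 in T2R1, both at p = 0.0286, the smallest p that this exact permutation test of 4 against 3 arrays can give (adjusted p = 0.0857 over 21 tests). In T1R1 it was -0.70 (exact permutation p = 0.0857, adjusted p = 0.164). 

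**Figure D3:**
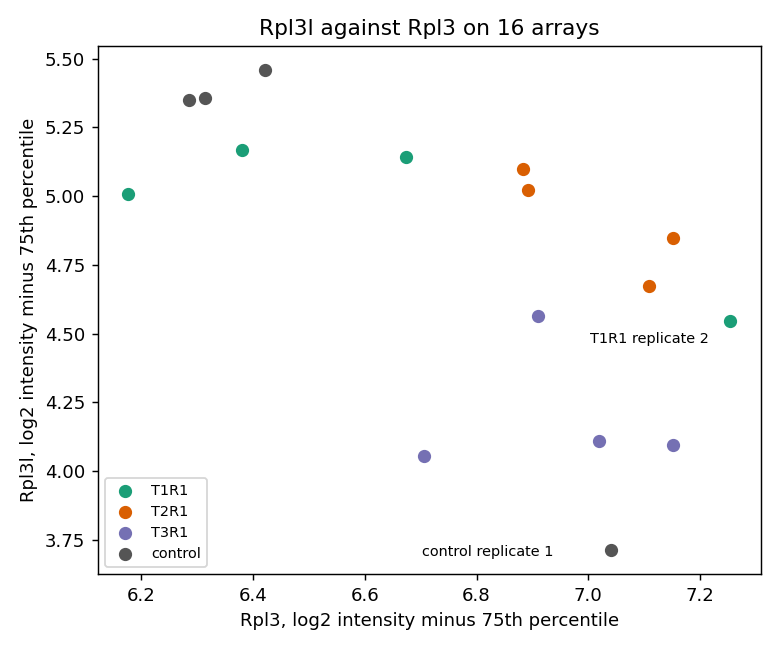
Each point is 1 of 16 arrays, with Rpl3 on the x axis and Rpl3l on the y axis, both as log2 intensity minus the 75th percentile. Control replicates 2 to 4 sit at the upper left, the T3R1 arrays at the lower right, and control replicate 1 at the lowest Rpl3l level of 3.71.

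Levels of cell type markers also differed from control replicates 2 to 4 in T3R1 hearts and in control replicate 1. The 8 cardiomyocyte markers, summed in multiples of the 75th percentile, ranged from 5901 to 6906 in T1R1 hearts, from 6590 to 7635 in T2R1 hearts and from 4545 to 6470 in T3R1 hearts. They were 3723 in control replicate 1 and between 6854 and 8189 in the other controls. Of the 8, none passed in T3R1 against control, and 5 were lower without control replicate 1. The 4 fibroblast markers summed to 353 to 415 in T3R1 hearts, 334 in control replicate 1 and 238 to 265 in the other controls, with 191 to 283 in T1R1 and T2R1 hearts. The 4 cycling cell markers summed to 6.67 to 9.85 in T3R1 hearts, 10.0 in control replicate 1 and 0.468 to 0.80 in the other controls, with 0.403 to 1.20 in T1R1 and 1.05 to 3.09 in T2R1 hearts. Of the fibroblast markers 2 of 4 were higher in T3R1 with or without control replicate 1, and of the cycling markers 0 of 4 with it and 4 of 4 without it. All markers of these 3 lists passed the filter. Their part in the Rpl3 and Rpl3l values was not tested.

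Rpl22l1 is the paralog of Rpl22, a large subunit protein that represses it in mouse. Its log2 levels were 4.69, 5.13, 4.68 and 4.77 in T1R1 hearts, 5.31, 5.42, 5.37 and 5.38 in T2R1 hearts and 5.34, 5.58, 5.42 and 5.38 in T3R1 hearts. Control hearts had 5.46, 5.13, 4.75 and 4.79. T2R1 and T3R1 hearts lay above control replicates 2 to 4 and above all T1R1 hearts. The log2 fold change was 0.34 ± 0.14 in T2R1 and 0.40 ± 0.14 in T3R1 against control (SE, n = 4 per group, limma adjusted p = 0.125 and 0.134). When control replicate 1 was left out, Rpl22l1 rose by 0.48 ± 0.12 in T2R1 (SE, limma adjusted p = 0.0143) and by 0.54 ± 0.12 in T3R1 (SE, limma adjusted p = 0.00555). In T1R1 its log2 fold change was -0.21 ± 0.14 with all controls (SE, limma adjusted p = 0.375) and -0.072 ± 0.12 without that array (SE, limma adjusted p = 0.698). Its parent Rpl22 had log2 fold changes of -0.19, -0.11 and -0.09 in T1R1, T2R1 and T3R1, none past the threshold. Within arrays, Rpl22l1 minus Rpl22 was higher by 0.45 in T2R1 than in control (exact permutation p = 0.0286, adjusted p = 0.4 over 28 tests) and by 0.48 in T3R1 (exact permutation p = 0.0857, adjusted p = 0.4).

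The moderated F test over all 4 groups called 3 of 84 members, where 26.9% of all features were called. These were Rpl22l1 (adjusted p = 0.0149), Rps28 (adjusted p = 0.0165) and Rpl39 (adjusted p = 0.0167). The F test spans both slides, so exposure and slide cannot be told apart in its calls. Rpl39, a small protein that lines the exit tunnel, had log2 levels of 6.15, 6.40, 6.16 and 6.03 in T1R1 hearts, 6.32, 6.57, 6.38 and 6.37 in T2R1 hearts and 6.58, 6.65, 6.66 and 6.69 in T3R1 hearts. Control hearts had 6.47, 6.58, 6.25 and 6.37. T3R1 hearts lay above all controls, though the lowest T3R1 heart and the highest control both round to 6.58, while T2R1 hearts overlapped the controls. Against control its log2 fold change was -0.23 ± 0.10 in T1R1, -0.0081 ± 0.10 in T2R1 and 0.23 ± 0.10 in T3R1 (SE, limma adjusted p = 0.143, 0.967 and 0.182). A second bright Rpl39 probe gave -0.17, 0.04 and 0.16. Rps28 had 7.71, 7.84, 7.80 and 7.76 in T2R1 hearts and 7.90, 8.01, 7.91 and 8.0 in T3R1 hearts, beside the T1R1 and control values above. Its T3R1 hearts lay above all T1R1 and T2R1 hearts, which were on another slide, and overlapped the controls.

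The probe that represents Rpl39 is shown because the F test rests on it. It spans chrX:34622696-34623990 on the minus strand across an intron, and no letters are in capitals.
Rpl39: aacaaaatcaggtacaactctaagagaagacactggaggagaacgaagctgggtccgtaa

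**Figure D4:**
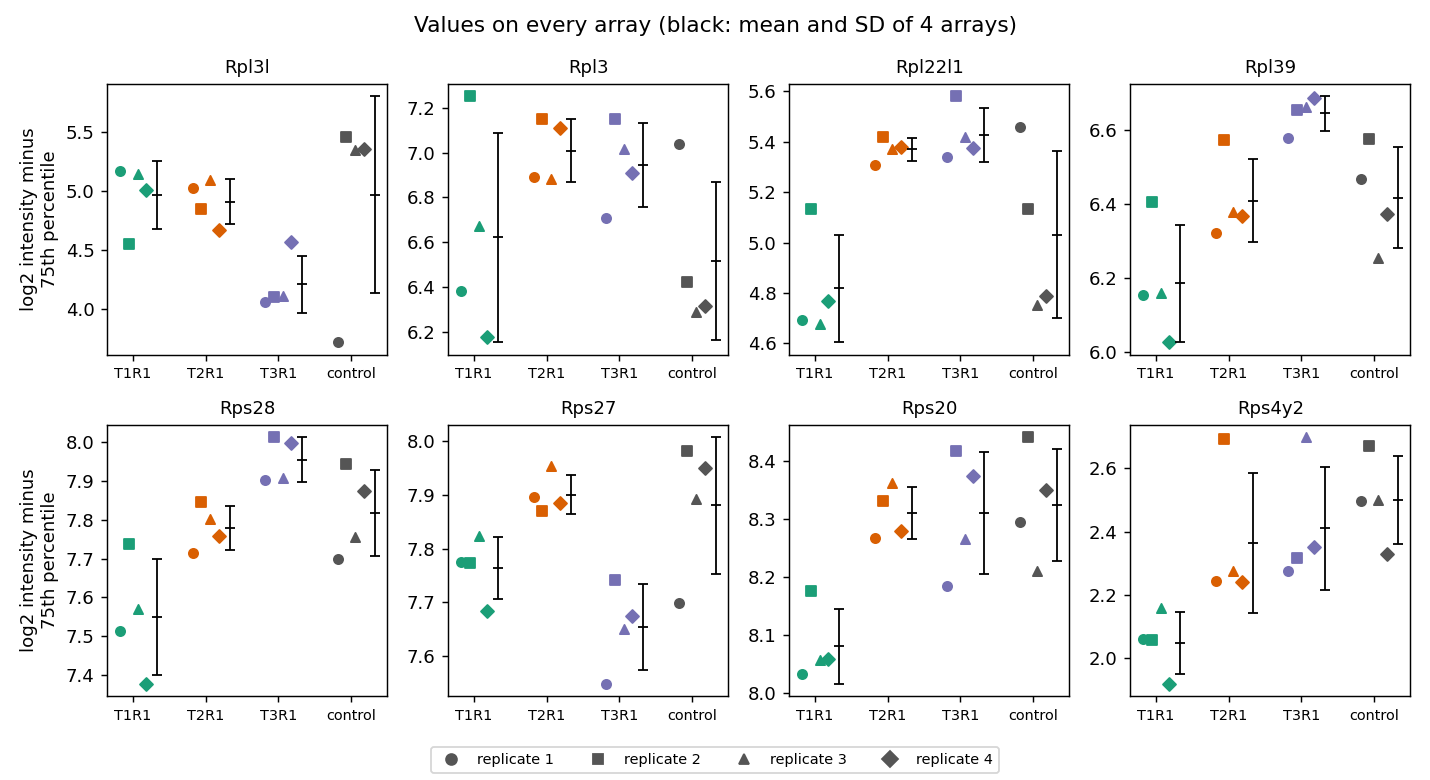
Each panel gives 1 gene as log2 intensity minus the 75th percentile on 16 arrays, with the replicate shown by the marker and the mean and SD of each group in black. Control replicate 1 is the lowest control for Rpl3l, Rps27 and Rps28 and the highest for Rpl3 and Rpl22l1. T1R1 hearts are the lowest group for Rps20, Rps28 and Rps4y2.

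Rps27, a small subunit protein, had log2 levels of 7.55, 7.74, 7.65 and 7.67 in T3R1 hearts, against 7.70, 7.98, 7.89 and 7.95 in control hearts. The T3R1 hearts lay below control replicates 2 to 4. The log2 fold change was -0.23 ± 0.08 with all controls (SE, n = 4 per group, limma adjusted p = 0.116), and without control replicate 1 Rps27 fell by 0.29 ± 0.07 (SE, limma adjusted p = 0.00613). Its other 3 probes gave -0.27, -0.22 and -0.18 with all controls. The design places these probes on chromosome 9, while the gene lies on chromosome 3, so a copy of the gene may share them. Its paralog Rps27l, which the tumour suppressor Trp53 induces, was at 0.07 ± 0.08 in T3R1 (SE, limma adjusted p = 0.599). Within arrays, Rps27l minus Rps27 was higher by 0.30 in T3R1 (exact permutation p = 0.0857, adjusted p = 0.4), and by 0.40 without control replicate 1 (exact permutation p = 0.0286, adjusted p = 0.0857).

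The other paralogs and parents did not pass in any comparison with control. Rpl7l1, which acts in ribosome assembly, had log2 fold changes of 0.22, 0.20 and -0.01 in T1R1, T2R1 and T3R1, and Rpl7 had -0.03, 0.11 and 0.03. Rpl36al had -0.11, 0.08 and 0.10, and Rpl36a -0.08, 0.08 and 0.19. Rpl39l had -0.82, -0.22 and 0.62, with SE of 0.49 each, and -0.44, 0.16 and 1.0 without control replicate 1, so its sign in T2R1 rests on that array. Rps4x, the X-linked parent of Rps4l, had -0.15, 0.06 and -0.02. The brightest Rps4x probe has its design position on chromosome 5, one of 7 members whose brightest probe lies on another chromosome than the gene, of 83 that could be compared.

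The 3 stalk proteins, which bind the translation factors, did not pass in any comparison. Rplp0 had log2 fold changes of -0.08, 0.08 and 0.01 in T1R1, T2R1 and T3R1 against control. Rplp1 had -0.21, -0.07 and 0.08, and Rplp2 had -0.13, 0.02 and -0.10. The SE of these values lay between 0.08 and 0.10, and the adjusted p was 0.205 or more (limma).

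Members with known roles outside the ribosome also stayed under the threshold. Rpl5 and Rpl11, which bind Mdm2 when ribosome assembly fails, had -0.25 and -0.10 in T1R1, -0.08 and 0.09 in T2R1, and -0.09 and 0.05 in T3R1. Rps6, the substrate of the S6 kinases, had -0.03, 0.05 and 0.04. Rps19, which is mutated in human Diamond-Blackfan anaemia, had -0.09, -0.05 and 0.07, and its binding protein Rps19bp1 had -0.08, -0.02 and 0.15. Rpl13a, which restrains translation of inflammatory messages in human cells, had -0.12, 0.05 and 0.11 by its brightest probe. Its dimmer probes, singled out after their values were seen, had log2 levels of 3.66 to 3.80 and 3.54 to 3.77 in T3R1 hearts. Control replicates 2 to 4 had 2.92 to 2.94 and 2.90 to 2.93, and control replicate 1 had 3.79 and 3.85. With each probe tested on its own, 0 member probes passed in T3R1 against control (limma). Rpl4, which lines the exit tunnel, had -0.01, 0.11 and -0.06, and Rps3, at the messenger RNA entry, had -0.17, 0.04 and 0.03. 

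T2R1 was compared with T1R1 within 1 slide, to ask what a second day of exposure adds. No member passed (limma), nor did any of the 22648 features (0%). At an unadjusted p under 0.05 there were 20 of 84 members, where 7.84% of all features passed. Of 84 members, 82 had a log2 fold change above 0, where 60.8% of all features did, and the median was 0.17 beside 0.05 over all features. The exceptions were the paralogs Rpl3l (-0.06) and Rpl7l1 (-0.02). Arrays did not overlap for 13 members, all higher, where 6.99% of all features did not overlap (5.09% higher and 1.9% lower). The 95% interval lay within 0.5 either side of 0 for 75 of 84 members and for 51.4% of all features. Genes of 1 array share its scaling, so they are not independent counts. The median of the members was taken as a deviation from each gene's mean over the control arrays, control replicate 1 included. It was -0.02, 0.14, 0.04 and 0.01 on the T2R1 arrays, against -0.22, 0.07, -0.11 and -0.24 on the T1R1 arrays. T1R1 replicate 2 thus lay inside the T2R1 range.

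The members with the smallest p values in that comparison were Rpl22l1, Rps13 and Rps20. Rpl22l1, with the values given above, had a log2 fold change of 0.55 ± 0.14 (SE, n = 4 per group, limma adjusted p = 0.635). Rps13, a small subunit protein, had 7.45, 7.55, 7.47 and 7.49 in T2R1 hearts, against 7.34, 7.19, 7.30 and 7.28 in T1R1 hearts, a log2 fold change of 0.22 ± 0.07 (SE, limma adjusted p = 0.635). Its second probe overlapped, with 7.18 to 7.28 in T2R1 hearts and 6.97 to 7.20 in T1R1 hearts. Rps20 had 8.27, 8.33, 8.36 and 8.28 in T2R1 hearts, above all T1R1 hearts, with a log2 fold change of 0.23 ± 0.08 (SE, limma adjusted p = 0.635).

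The median of the set moved with the array scaling. Scalings other than quantile normalization move members and all other features alike, so the distance between both medians is given too. In T1R1 against control its median was -0.12 with the 75th percentile, -0.05 with that percentile taken over probes detected on all arrays, -0.02 with the 95th percentile and -0.04 with quantile normalization. It was -0.55 with the median of each array, and 0.27 with the spike-in probes, where all features had a median of 0.38. Scaling on the median gave all features a median of -0.44, and 78 of 84 members were then called lower, where 44.4% of all features were. In T2R1 against control the same scaling gave all features a median of -0.37, called 17 of 84 members lower, where 34.1% of features were, and gave the members a median of -0.35. The distance between the members' median and that of all features was -0.11 in T1R1 under the scalings that subtract 1 number per array and -0.02 under quantile normalization. In T3R1 the members' median lay above that of all features by 0.11 under those scalings and by 0.18 under quantile normalization.

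Of 84 members in T1R1 against control, 6 lay above 0 with the 75th percentile, 20 with that of detected probes, 32 with the 95th percentile and 30 with quantile normalization. In T2R1 against T1R1 the members above 0 numbered 82, 82, 78 and 69 under the same scalings. With the spike-in probes the members' median in T2R1 against T1R1 was -0.04 and that of all features -0.17. The distance between both medians in that comparison was 0.12 under the scalings that subtract 1 number per array and 0.02 under quantile normalization.

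**Figure D5:**
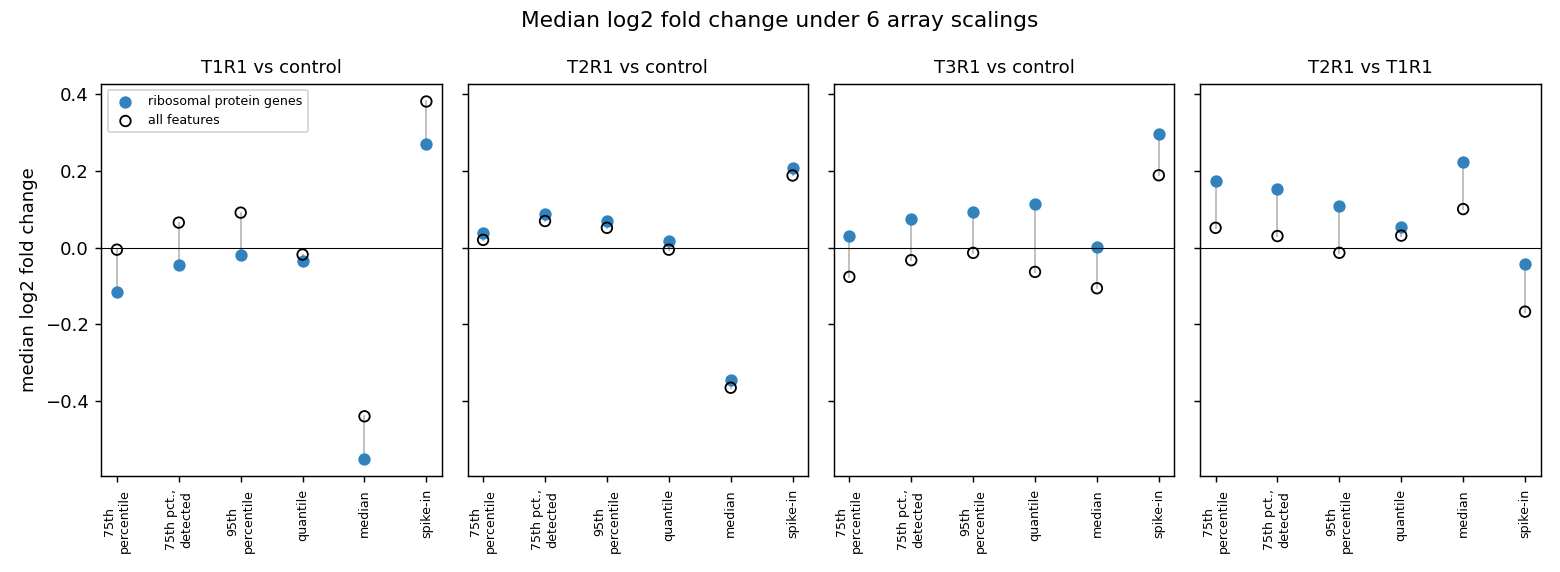
Filled points give the median log2 fold change of the 84 ribosomal protein genes and open points that of all 22648 features, under 6 array scalings on the x axis and in the 4 comparisons. Both points move together between scalings, from -0.55 to 0.27 for the genes in T1R1 against control, while their distance changes little except with quantile normalization.

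Most genes were read by several probes. After the filter, 29 genes had 1 probe and 55 had up to 7. The 97 further probes gave the same direction as the brightest probe of their gene for 79 in T1R1, 64 in T2R1 and 73 in T3R1 against control, and for 97 in T2R1 against T1R1. Their log2 fold change lay within 0.3 of that probe's for 93, 94 and 87 against control, in the same order. In T2R1 against T1R1 it did for 95. When each probe was tested on its own, 3 of 181 member probes passed in T1R1 against control, where 9.25% of all 31390 probes did. Besides Rps4y2 these were a probe of Rpl27a at -0.43 (limma adjusted p = 0.00448) and a dim probe of Rpl6 at 0.53 (limma adjusted p = 0.0343). The brightest Rpl27a and Rpl6 probes gave -0.17 and -0.07 in that fit (limma adjusted p = 0.321 and 0.714). The 3 Rpl27a probes were all below 0, and the dim Rpl6 probe had the opposite sign to the brightest one. These probes were singled out after their values were seen.

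Pyrimidine runs near the start site are shown because the TOP motif is such a run at the start of the messenger RNA. The rule did not use them. A run was counted where C is followed by 6 or more letters that are each C or T, on the transcribed strand, within 20 bases either side of the RefSeq start in the GRCm38.p6 build. It was found for 35 of 63 members with a start in the table (55.6%) and for 21.4% of all 27025 symbols. These counts include runs before the start, outside the messenger RNA, so they do not count TOP motifs. Windows of 30 bases, 20 before and 10 from the start on, are given with the run in capitals. In the order printed they are chr3:28805488-28805517 (plus), chrX:37085213-37085242 (minus), chr14:18270977-18271006 (minus), chr3:90213639-90213668 (minus), chr17:33824553-33824582 (minus) and chr17:24727806-24727835 (plus).
Rpl22l1: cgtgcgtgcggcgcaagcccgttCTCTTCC
Rpl39: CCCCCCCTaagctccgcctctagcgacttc
Rpl15: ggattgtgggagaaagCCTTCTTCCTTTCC
Rps27: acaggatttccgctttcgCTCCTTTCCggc
Rps28: tcctgggtaccgcgtgcggtctcgcgagag
Rpl3l: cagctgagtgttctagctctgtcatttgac

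The windows of Rpl22l1, Rpl39, Rpl15 and Rps27 hold a run, and those of Rps28 and Rpl3l hold none. The Rpl39 run lies wholly before the start, so a messenger RNA from that start does not hold it. A match is a description of these letters and no measure of translation.

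Genes around the ribosome were read from 4 lists. Of 39 genes of ribosome biogenesis, which make and fold ribosomal RNA and subunits, none passed in any comparison (limma), and their medians were 0.20, 0.09 and 0.01 in T1R1, T2R1 and T3R1 against control. Of 17 translation factors and other genes of the TOP class, none passed, with medians of -0.09, -0.04 and 0.06. Of 4 further subunit genes with other names (such as Rpsa and Fau), none passed, with medians of -0.09, 0.11 and 0.01. Of 20 genes of mTORC1 and TOP control, 1 was higher in T1R1, and 1 was higher and 1 lower in T2R1. Of all features, 7.75% were higher and 2.1% lower in T1R1. The shares were 14.8% and 3.59% in T2R1, and 0.503% and 0.19% in T3R1. Eef2k, the kinase that slows elongation, rose by 0.33 ± 0.10 in T1R1 (SE, limma adjusted p = 0.0499), a call lost without control replicate 1 (0.28, limma adjusted p = 0.0665). Sesn2, a stress-induced inhibitor of mTORC1, rose by 0.28 ± 0.09 in T2R1 (SE, limma adjusted p = 0.0318). Deptor, a subunit that restrains mTOR, fell by 0.63 ± 0.18 in T2R1 (SE, limma adjusted p = 0.0266), and both T2R1 calls held without control replicate 1. Against control replicates 2 to 4 the counts in T3R1 were 1 higher and 2 lower for biogenesis, 3 higher and 1 lower for the TOP class, 1 lower for the further subunit genes, and 7 lower for mTORC1 and TOP control. In T1R1 they were 1 lower for biogenesis, 2 lower for the TOP class, 1 lower for the further subunit genes and 3 lower for mTORC1 and TOP control. In T2R1 they were 1 lower for biogenesis, 2 higher for the TOP class, none for the further subunit genes, and 1 higher and 4 lower for mTORC1 and TOP control. Against the same controls, 10.2% of all features were higher and 19.2% lower in T3R1. The shares were 8.2% and 9.64% in T1R1, and 15% and 9.37% in T2R1.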

How the data were processed

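Total RNA of 16 hearts was read on 1-colour Agilent arrays. Per the file headers, Feature Extraction 10.7.3.1 made the processed intensity, with background subtracted and spatial trend removed, and no scaling between arrays. The authors' deposited log2 value table had the same distribution on all 16 arrays, with a median of 6.10, and how they made it is unstated in the labels. Flags of 0 or 1 were used per the file headers as other values.

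Outlier spots were left out, the 75th percentile of log2 intensity was subtracted per array, and replicate spots were averaged per probe. Probes flagged well above background throughout any 1 group's 4 arrays were retained (31390 of 55681), and each gene took its brightest probe. limma 3.58.1 in R 4.3.3 fitted 4 groups (12 residual, 2.26 prior degrees of freedom) with two-sided Benjamini-Hochberg p under 0.05. The values of 1 member are not reported here. For Rpl23, Rpl7 and Rps7 the fit lacked T2R1 replicate 3. The pipeline was tested on simulated data.

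The genes named were, per comparison, the 6 highest and lowest past the threshold or else the 3 smallest p values, a list of members by role, and called genes of 4 pathway lists. Members, lists and this rule were chosen with earlier results of these data known. Spike-in scaling, the second Rpl3 probe and the within-array pair differences were added after seeing the data. Control replicate 1 was also singled out after seeing the data. Labels give hearts as individual, and state no pairing.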

Additional observations from a re-analysis of the deposited data

Results flagged for a closer look

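Among 123 sets of 4 arrays (30 genes and the median of all members, by group), 6 held an array far from the other 3, and chance flags about 1 in 20 sets. Rpl3l had 3.71 in control replicate 1, against 5.35 to 5.46 in the other controls, and 4.56 in T3R1 replicate 4, against 4.05 to 4.11 in the other T3R1 hearts. In T1R1 replicate 2, Rpl15 had 7.24, against 6.85 to 6.91 in the other T1R1 hearts, and Rpl36a had 5.80, against 5.34 to 5.41. In T2R1 replicate 2, Rplp1 had 7.75, against 7.59 to 7.61 in the other T2R1 hearts, and Rps4y2 had 2.69, against 2.24 to 2.28. All values are log2 intensity minus the 75th percentile.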

How the results depend on the processing

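Values are counts of called members, then medians or single log2 fold changes, and where they moved with a setting the cause was not tested. In the comparisons with control, the share of all features called also moved with the array scaling. That share is given above for median scaling and is not given beside the counts here. Without it, a change in a count is not by itself a result about ribosomal protein genes. In T1R1 against control the count of 1 was 2 with normexp, 0 with quantile, detected-probe, 95th percentile and spike-in scaling, 78 with median scaling, 0 with no filter on dim probes, 3 with every probe on its own, 0 with only the 2 groups compared (fewer samples) and 8 with array weights. In T2R1 the count of 0 was 1 with normexp, 17 with median, 2 with detected-probe and 1 with 95th percentile scaling, 1 with every probe, and 9 with array weights. In T3R1 it was 12 with array weights. The F test count of 3 was 12 with normexp, 77 with median scaling, 7 with the authors' table, 0 with spike-in scaling, 8 with every probe, 6 with the mean over probes, 5 with trend and robust prior, and 36 with array weights. With the replicate block the counts were 2 in T2R1 and 5 in the F test. Replicate numbers did not pair the arrays: 9 of 24 same-number pairs correlated above 0.1, and 5 of 16 arrays correlated best with their own number. Leaving out 1 array gave 0 to 6 in T1R1 (6 without control replicate 1; 0 without control replicate 2 or 3 or T1R1 replicate 1 or 4; 2 without T1R1 replicate 2), 0 to 3 in T2R1 and 0 to 5 in T3R1 (both highest without control replicate 1), and 3 to 15 in the F test (11 without control replicate 1, 15 without T1R1 replicate 2). Without control replicate 1 and T1R1 replicate 1 the counts were 5, 4 and 6 in T1R1, T2R1 and T3R1, and 9 in the F test, with Rpl3 at 0.36 and Rpl3l at -0.49 in T1R1. In T2R1 against T1R1 the count was 0 in all settings run.

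Medians moved by more than 0.09, the SD of the members' median between arrays of a group, with median scaling (-0.55 in T1R1, -0.35 in T2R1), 95th percentile scaling (-0.019 in T1R1), the authors' table (-0.011 in T1R1, 0.033 in T2R1 against T1R1), quantile normalization (0.053 in T2R1 against T1R1) and spike-in scaling (0.27, 0.21 and 0.29 in T1R1, T2R1 and T3R1 against control, -0.043 in T2R1 against T1R1). Leaving out 1 array kept them from -0.18 to -0.08 in T1R1, 0.0074 to 0.08 in T2R1, -0.00085 to 0.07 in T3R1 and 0.14 to 0.23 in T2R1 against T1R1. Single genes changed sign as follows. Rpl3 in T1R1 was -0.022 with normexp, -0.33 with median scaling and -0.11 to 0.28 on leaving out 1 array. Rpl3l in T1R1 was 0.14, 0.067, 0.093 and 0.38 with quantile, detected-probe, 95th percentile and spike-in scaling, and -0.42 to 0.16 on leaving out 1 array. Rpl3l in T2R1 was 0.0018 with quantile and 0.11 with spike-in scaling, and -0.48 to 0.10 on leaving out 1 array. With median scaling Rpl10, Rpl15 and Rpl22l1 in T2R1 were -0.15, -0.13 and -0.048. With spike-in scaling, under which all features had medians of 0.38, 0.19 and 0.19 in T1R1, T2R1 and T3R1 against control and -0.17 in T2R1 against T1R1, Rps20 and Rps28 in T1R1 were 0.14 and 0.12, Rps27 in T3R1 was 0.038, and Rps13 in T2R1 against T1R1 was -0.0031.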
